A study of Mus musculus and Homo sapiens with 9 samples.

Results

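The HOX genes were taken as the protein-coding genes whose symbol is HOX, a letter from A to D and a number. They are 39 of the 21938 protein-coding genes of the mouse annotation and 39 of the 20033 of the human annotation, and they lie in 4 clusters, HOXA, HOXB, HOXC and HOXD. In all, 9 peak lists were read at these genes, 5 from mouse embryonic fibroblasts (MEFs) and 4 from the human embryonic kidney line HEK293, with 1 library behind each list and no replicate. The assay was CUT&Tag: a transposase is brought to an antibody bound in the nucleus and inserts sequencing adapters into the DNA nearby. The antibody S9.6 recognises RNA:DNA hybrids, the core of an R-loop, in which a transcript pairs with its template strand and leaves the other DNA strand unpaired.

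The 5 MEF lists were S9.6 in Mcm8 wild-type cells (WT), S9.6 in Mcm8 knockout cells (KO), S9.6 in cells with a control short hairpin RNA (shControl), S9.6 in cells with a hairpin against the RNA helicase gene Ddx5 (shDdx5), and wild-type cells with no primary antibody. By the study's methods the MEFs came from embryo trunks of a mixed background, the knockout removed an exon of Mcm8 in the germ line, the cells were immortalised with SV40 sequences, and the hairpins were delivered by adenovirus. The 4 HEK293 lists, all from cells of wild-type genotype, were a mouse IgG control (IgG), anti-FLAG in cells transfected with a FLAG-MCM8 plasmid (FLAG-MCM8), S9.6 alone (S9.6), and S9.6 in cells transfected with the plasmid labelled RNH1 (RNH1). The study uses that name for RNase H1, which digests RNA paired with DNA. FLAG-MCM8 sites are therefore those of an overexpressed, tagged protein. MCM8 is a helicase of the minichromosome maintenance family that acts in DNA repair. The MEF and HEK293 lists passed different peak thresholds, so no count or level of a MEF list is set against one of a HEK293 list below.

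HOX genes encode homeodomain transcription factors that give cells their position along the body axis. Within a cluster their order on the chromosome follows the order in which they are used: paralogue groups with low numbers act towards the head and those with high numbers towards the tail and the limb tips. The clusters are dense in CpG islands and in antisense and intergenic noncoding RNA genes, among them HOTAIRM1, HOTAIR and the miR-196 genes, and in cells that do not use a HOX gene its promoter is held by Polycomb proteins. Fibroblasts keep a HOX pattern that reflects where in the body they were taken from.

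A peak was counted at a gene when its midpoint lay within 1 kb of any annotated transcription start site (TSS) of that gene, and in a cluster when its midpoint lay between 5 kb before the first and 5 kb after the last HOX gene. The mouse windows (mm10) were chr6:52150590-52265880 for HOXA, chr11:96189316-96373256 for HOXB, chr15:102916103-103041852 for HOXC and chr2:74663310-74770142 for HOXD, 532 kb in all. The human windows (hg38) were chr7:27087993-27205091, chr17:48523526-48733750, chr12:53933831-54061030 and chr2:176087721-176195907, 563 kb in all. The lists held 4314 to 17178 peaks, and the depth computed from their background ran from 720 fragments per Mb without antibody to 5729 to 7001 in the S9.6 lists of MEFs and 8314 to 11050 in HEK293. With 1 library per group no p-value could be given, so shares are printed with exact (Clopper-Pearson) 95% binomial intervals and counts with exact Poisson ones. These cover counting error only, and neighbouring HOX genes can share a peak. As a check of the labelled cells, Vim and 1 or 2 more of 10 fibroblast genes had a TSS peak in each of the 4 MEF lists made with S9.6, and none of 4 epithelial genes did. In HEK293, 2 of the epithelial genes had one in S9.6 and 1 each in FLAG-MCM8 and RNH1, and of 6 embryonic kidney genes 2 had one in S9.6, 1 in RNH1 and none in FLAG-MCM8. The blood gene PTPRC and the endothelial genes PECAM1 and CDH5 had none in any of the 9 lists. A peak at a gene does not measure its expression.

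The sequences under 2 HOXC loci that recur below are shown first, because the peaks they stand in align between mouse and human. Each line is the 101 bp around a summit, on the plus strand, with runs of at least 4 G or 4 C in capitals; peaks are numbered from left to right within a list and cluster. The upper pair lies in introns of Hoxc6 and Hoxc5 in mouse (mm10, chr15:102999455-102999555) and of HOXC6 and HOXC4 in human (hg38, chr12:54018097-54018197). The lower pair lies beside the TSS of Hoxc13 (mm10, chr15:102920947-102921047) and of HOXC13 (hg38, chr12:53938388-53938488). Each line is centred on its own summit, so the lines of a pair need not hold the stretch that aligned. Those of the lower pair stand at different distances from the gene start and are not matching positions.
shDdx5 HOXC peak 4: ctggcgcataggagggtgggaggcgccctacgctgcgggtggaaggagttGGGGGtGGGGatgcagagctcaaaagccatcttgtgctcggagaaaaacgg
S9.6 HOXC peak 2: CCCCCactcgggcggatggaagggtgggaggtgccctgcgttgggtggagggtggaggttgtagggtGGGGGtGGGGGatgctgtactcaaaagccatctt
shDdx5 HOXC peak 1: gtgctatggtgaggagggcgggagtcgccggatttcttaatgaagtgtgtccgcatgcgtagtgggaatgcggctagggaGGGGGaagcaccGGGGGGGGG
RNH1 HOXC peak 1: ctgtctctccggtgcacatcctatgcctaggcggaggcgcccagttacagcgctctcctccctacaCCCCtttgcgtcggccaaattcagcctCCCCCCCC

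Few HOX genes had a TSS peak in any list. Among the S9.6 lists of MEFs, 2 of the 39 genes had one in WT (among them Hoxd11), 5 in KO (among them Hoxc5, Hoxc10, Hoxd3 and Hoxd4), 3 in shControl (Hoxa7, Hoxc5 and Hoxc10) and 3 in shDdx5 (among them Hoxb2 and Hoxc13). Without antibody there was none. In HEK293 the genes were HOXA9 and HOXC4 for FLAG-MCM8, HOXA9 and HOXC4 for S9.6, HOXA9, HOXB7 and HOXC13 for RNH1, and HOXB2, HOXC4 and HOXD10 for IgG. The grid of the genes shows how scattered these were over clusters and paralogue groups.

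**Figure D1:**
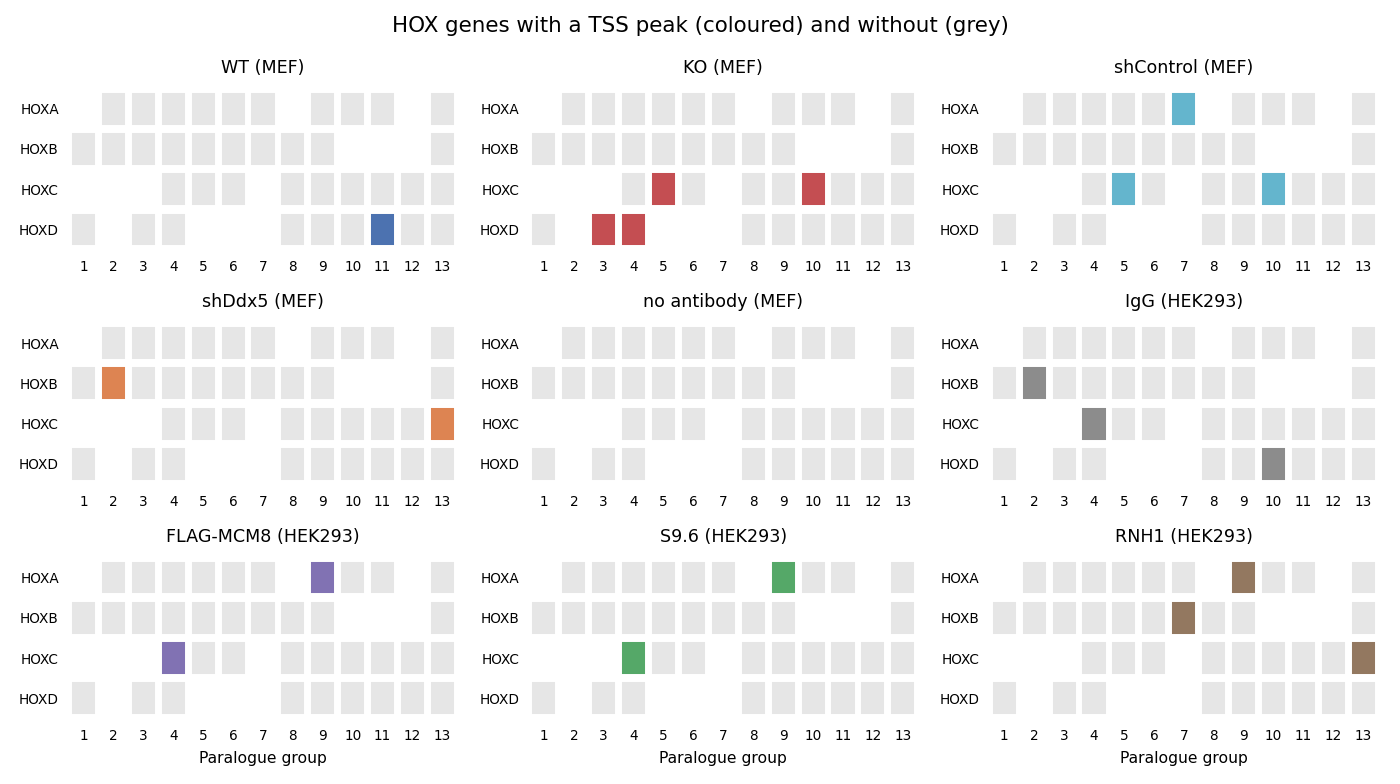
HOX genes by cluster (rows) and paralogue group (columns, 1 to 13) in each of the 9 lists; a coloured square (dark grey in IgG) is a gene with a peak midpoint within 1 kb of a TSS, a light square a gene without, and a gap a gene that the cluster lacks or that is not reported. Between 0 and 4 squares are coloured in each list, and HOXA9 is the only gene coloured in the FLAG-MCM8, S9.6 and RNH1 lists alike.

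In every list but IgG the share of HOX genes with a TSS peak was below that of all protein-coding genes. In the HEK293 S9.6 list it was 5.13% (0.627 to 17.3%), against 30.1% of all genes and 39.5% of genes with a CpG-rich promoter. In the RNH1 list it was 7.69% (1.62 to 20.9%) against 24.6% and 32.5%, and in the shDdx5 list 7.69% (1.62 to 20.9%) against 23.1% and 38.6%. These were the 3 lists whose interval lay wholly below the share of all genes. The HOX shares are over all 39 genes, not all of which have a CpG-rich promoter. Of the HOX genes that do, 1 of 29 had a TSS peak in S9.6, 3 of 29 in RNH1 and 2 of 19 in shDdx5.

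In the remaining lists the interval covered the share of all genes. The WT share was 5.13% (0.627 to 17.3%) against 11.3%, the KO share 12.8% (4.30 to 27.4%) against 16%, and the shControl share 7.69% (1.62 to 20.9%) against 14.7%. For FLAG-MCM8 it was 5.13% (0.627 to 17.3%) against 12%. The controls gave 0 of 39 (0 to 9.03%) against 1.24% without antibody and 7.69% (1.62 to 20.9%) against 5.59% with IgG, so the IgG list held as many HOX genes with a TSS peak as the RNH1 list did. A CpG-rich promoter was defined by at least 55% GC and an observed over expected CpG ratio of at least 0.65 within 250 bp of a TSS. Of the HOX genes 19 of 39 in mouse had one (48.7%, against 51.4% of all genes) and 29 of 39 in human (74.4%, against 69.1%). The median promoter GC was 59.6% at HOX genes against 61% at all genes in mouse, and 62.2% against 67% in human. The median CpG ratio was 0.811 against 0.665 in mouse and 0.728 against 0.788 in human. Whether promoter sequence bears on the TSS shares was not tested.

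**Figure D2:**
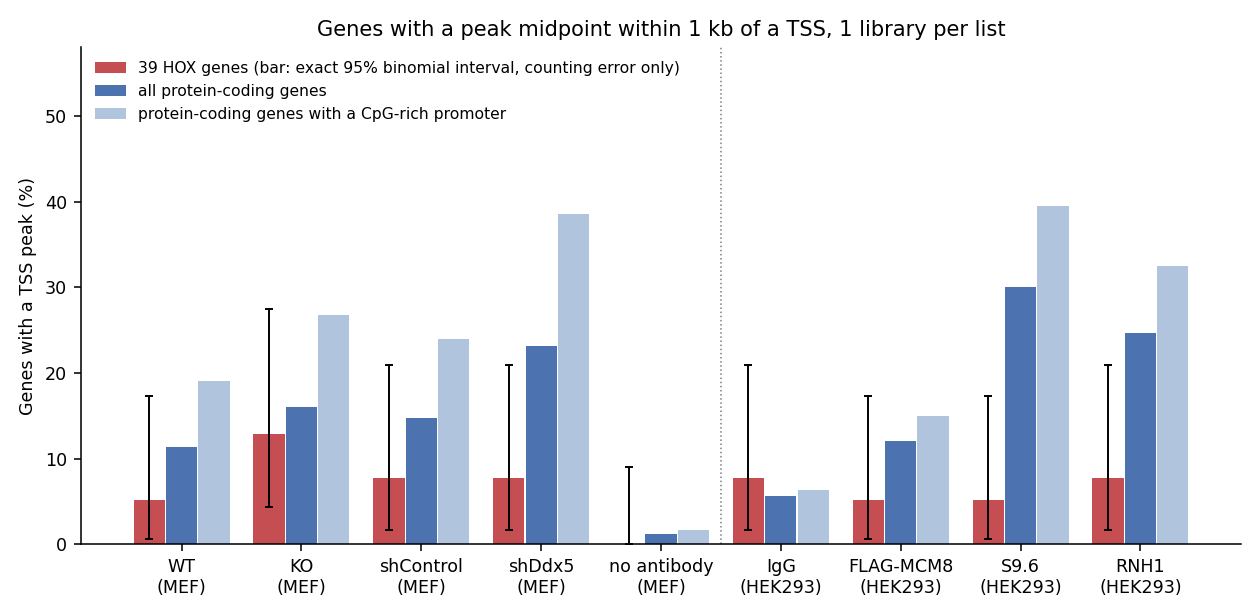
Percent of genes with a TSS peak in each of the 9 lists for the 39 HOX genes (red, with the exact 95% binomial interval), all protein-coding genes (dark blue) and those with a CpG-rich promoter (light blue). The red interval ends below the dark bar for shDdx5, S9.6 and RNH1; in IgG the red bar, at 7.69%, stands above the dark bar, at 5.59%.

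Pooling lists left the HOX share the lower. A TSS peak in any of the 4 MEF lists made with S9.6 was found for 9 HOX genes (23.1%, 11.1 to 39.3%). The share of all genes, 33.9%, lay within that interval. A TSS peak in any of the FLAG-MCM8, S9.6 and RNH1 lists was found for 4 HOX genes (10.3%, 2.87 to 24.2%). Here the share of all genes, 40.6%, lay above the interval. The other 30 mouse and 35 human HOX genes had none. Among the mouse genes 6 were found in 1 of the 4 lists, Hoxc5 and Hoxc10 in 2, 1 gene in 3 and none in 4. Of all genes 919 (4.19%) were found in all 4, a share within the interval of 0 of 39 (0 to 9.03%).

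Counted over the windows, the clusters were not empty. They held 61 peaks over the 9 lists, 27 of them in HOXC, 15 in HOXA, 11 in HOXB and 8 in HOXD. By list the counts were 4 (WT), 7 (KO), 9 (shControl), 9 (shDdx5), 1 (no antibody), 4 (IgG), 8 (FLAG-MCM8), 10 (S9.6) and 9 (RNH1). The density in the windows was 13.2 peaks per Mb in KO (5.29 to 27.1) against 3.52 over the genome, 16.9 in both shControl and shDdx5 (7.74 to 32.1) against 4.5 and 4.32, 14.2 in FLAG-MCM8 (6.14 to 28) against 4.30, 17.8 in S9.6 (8.52 to 32.7) against 4.90 and 16.0 in RNH1 (7.31 to 30.4) against 4.05. In these 6 lists the interval lay above the whole genome's density, and in WT, no antibody and IgG it included that density. The windows are dense in genes, which was not adjusted for.

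Most window peaks lay away from the HOX starts. Of the 29 window peaks of the 4 MEF lists made with S9.6, 10 were at a HOX TSS and 12 at the TSS of any annotated gene, noncoding ones included. Of the 27 of FLAG-MCM8, S9.6 and RNH1, 8 were at a HOX TSS and 14 at any TSS. Against all peaks of the same list the share of window peaks at a protein-coding TSS went either way. It was 2 of 10 (20%, 2.52 to 55.6%) against 37.6% in S9.6, 3 of 9 against 37.1% in RNH1, 3 of 9 against 40.2% in shDdx5 and 2 of 9 against 24.4% in shControl. It was 2 of 4 against 34.6% in WT, 3 of 7 against 33.0% in KO, 3 of 8 (37.5%, 8.52 to 75.5%) against 16.6% in FLAG-MCM8 and 3 of 4 (75%, 19.4 to 99.4%) against 6.44% in IgG. The interval lay apart from the list's share in IgG alone.

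The window peaks of MEFs rested on few fragments. Fragments at a summit and the local background that MACS2 expects there were solved from each peak's fold and p-value, and q is that p-value adjusted by MACS2 for the whole genome, given here as −log10 q. The MEF summits held 7 to 17 fragments, with a median of 10, and 6 of the 29 had a q of 0.05 or lower: 0 of 4 in WT (32.7% of all its peaks), 1 of 7 in KO (36.1%), 1 of 9 in shControl (28.1%) and 4 of 9 in shDdx5 (60.5%). Their fold over the local background ran from 2.75 to 4.07. In HEK293 every deposited peak had a q of 0.05 or lower, and the 27 window peaks of FLAG-MCM8, S9.6 and RNH1 had 11 to 38 fragments at the summit and folds of 3.03 to 5.52. Their heights were near those of other peaks of the same lists, whose medians ran from 8 to 10 fragments in the S9.6 lists of MEFs and from 14 to 21 in FLAG-MCM8, S9.6 and RNH1. The best-ranked window peak in each of these 7 lists stood between the top 7.91% of its list by q, in S9.6, and the top 33.7%, in WT.

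**Figure D3:**
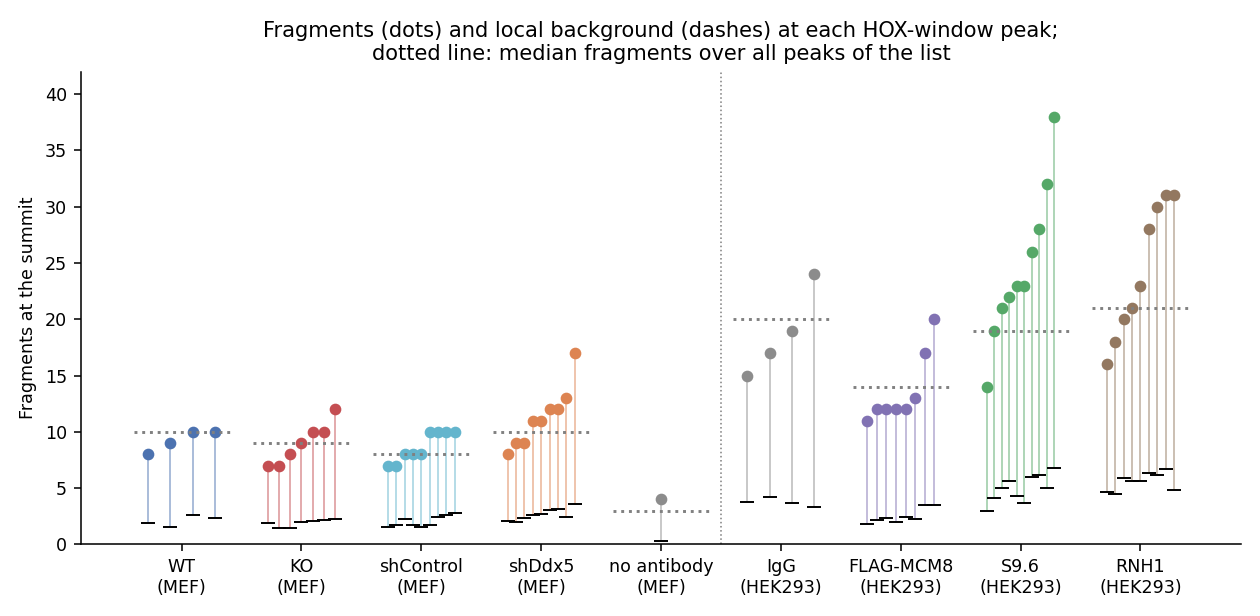
Fragments at the summit (dots) and the local background (dashes) of each of the 61 window peaks, by list; the dotted line is the median over all peaks of that list. MEF dots of the S9.6 lists lie between 7 and 17. Those of HEK293 lie between 11 and 38, the highest being the HOXC intron peak of the S9.6 list. The MEF and HEK293 lists passed different peak thresholds, so their heights are not to be compared.

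The first comparison in MEFs was KO against WT, which asks what changes when MCM8 is lost. Of the HOX genes, 4 had a TSS peak in KO and not in WT (9.38% of all genes did), 1 in WT and not in KO (4.66%) and 1 in both (6.66%). KO supplied 5 of the 7 gene calls of the pair (71.4%, 29.0 to 96.3%), against 58.6% over all genes, and 7 of the 11 window peaks (63.6%, 30.8 to 89.1%), against 59.7% over all peaks. Both intervals covered the value of the whole lists, so the HOX counts did not set KO apart from WT beyond the length of the lists.

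The genes with a TSS peak in KO and not in WT rested on 2 peaks, and Hoxc5 and Hoxc10 had one in shControl too. The peak in the coding exon of Hoxc10, a posterior gene, held 10 fragments at the summit over a background of 2.17. It was counted for Hoxc5 too, since the Hoxc5 gene record begins beyond the peak but within 1 kb of the peak's midpoint. The peak shared by Hoxd3 and Hoxd4, in an intron of both and 7 bp from an internal TSS of the antisense gene Hoxd3os1, held 7 fragments over 1.46. Their −log10 q values, 1.10 and 0.629, fell short of a q of 0.05. In WT alone, an intron of Hoxd11, which acts in the limb, held 9 fragments over 1.54 at 339 bp from a Hoxd11 TSS, with a −log10 q of 1.25, the highest of the 4 WT peaks. A WT peak upstream of Hoxc4 had 0.654.

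The peak of KO with the highest −log10 q in the windows, 1.97, was not at a TSS. It lay at chr15:103016611-103017312 (mm10), over untranslated sequence of Hoxc5 and 1972 bp upstream of Hoxc4, and held 12 fragments (6.20 to 21.0) over 2.25. The WT and shControl lists each had a peak inside it, with 10 fragments apiece, and the summits of those 2 were 2 bp apart. This was the only window locus of MEFs with overlapping peaks in 3 lists. The next in KO were an intron of Hoxa3, with 10 fragments and a −log10 q of 1.18, and the Hoxc10 peak.

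**Figure D4:**
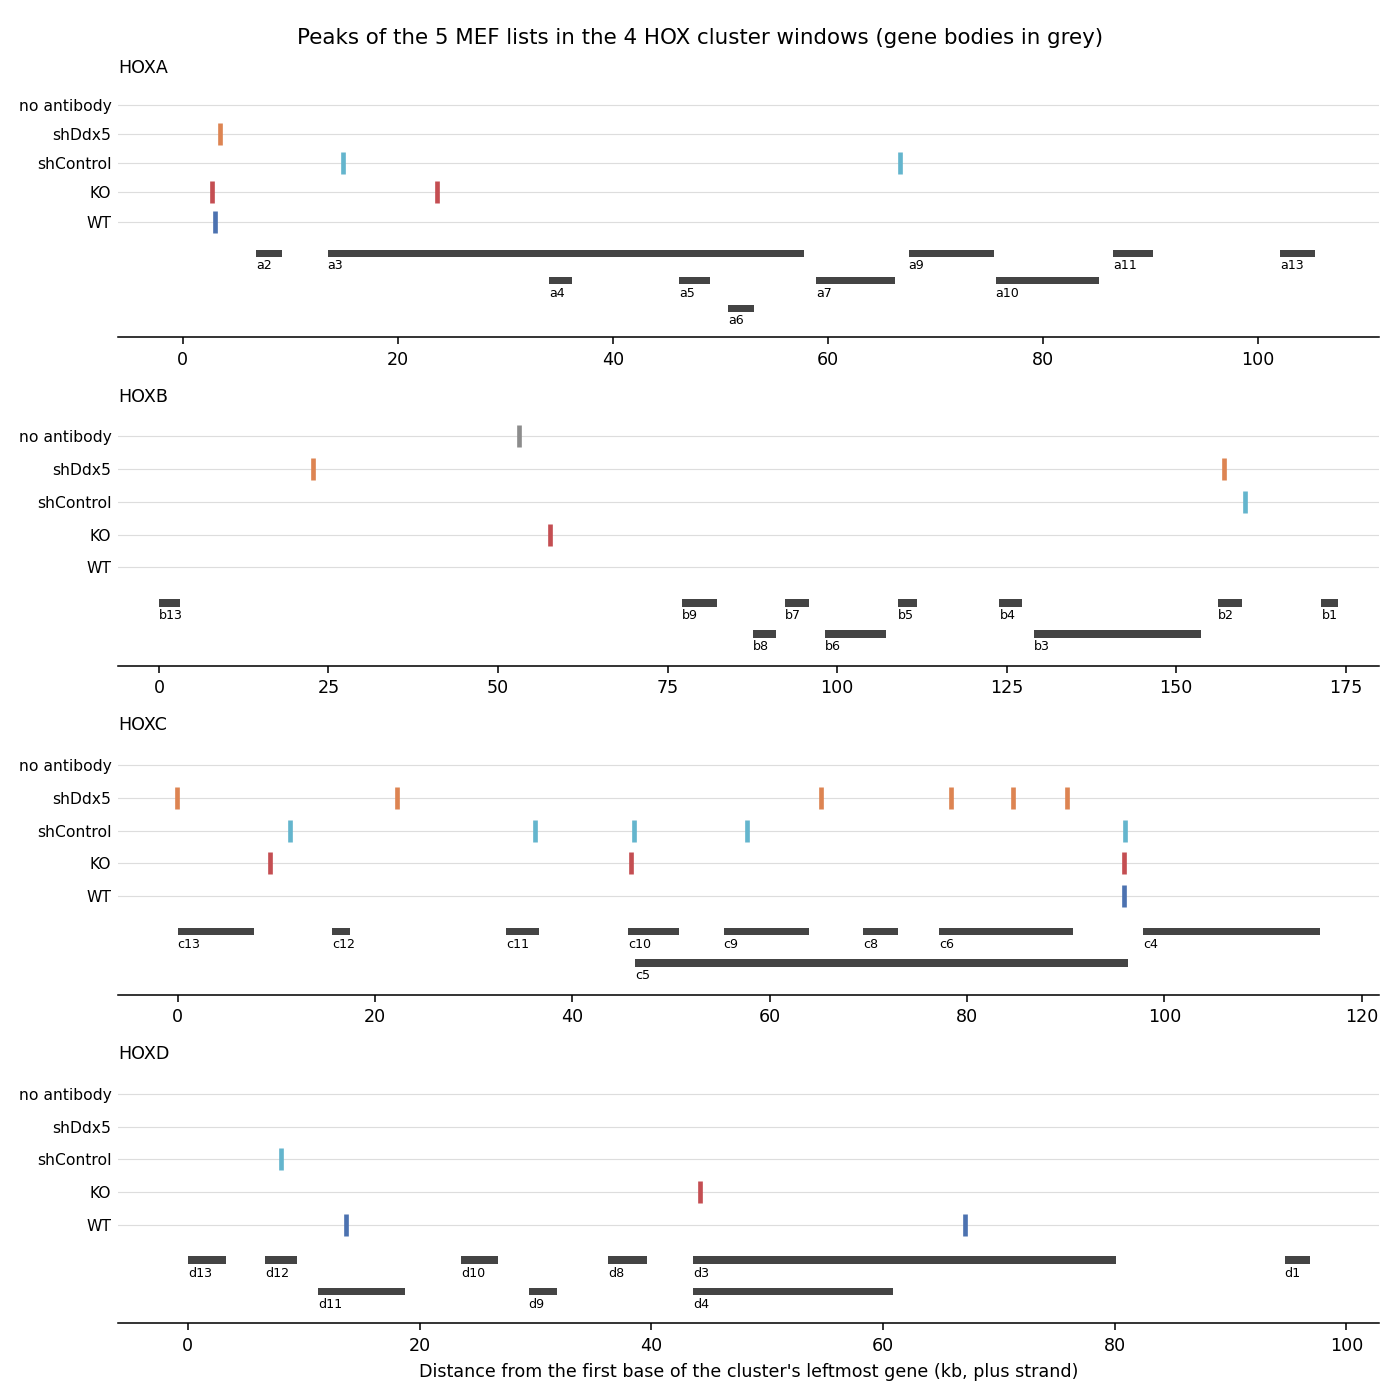
Peaks (vertical ticks) of the 5 MEF lists along the 4 mouse HOX windows, in kb from the first base of the leftmost gene, over the gene bodies in grey, with 1 gene left out. The HOXC panel holds 15 of the 30 ticks; WT, KO and shControl line up just left of c4, and none of the 6 shDdx5 ticks in HOXC lines up with another list.

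The second comparison was shDdx5 against shControl, where Ddx5 encodes a helicase that unwinds RNA:DNA hybrids. Both lists had 9 window peaks (50%, 26 to 74%, against 49.0% over all peaks) and 3 HOX genes with a TSS peak (50%, 11.8 to 88.2%, against 61.0% over all genes). No gene was found in both, where 9.77% of all genes were; 3 were in shDdx5 and not shControl (13.3% of all genes) and 3 in shControl and not shDdx5 (4.97%). The 2 lists thus held equal numbers of window peaks, at different places, and none of the 9 shDdx5 peaks overlapped a shControl peak (0 to 33.6%), against 20.2% of all shDdx5 peaks. None of the 9 overlapped a WT or a KO peak either, against 16.4% and 21.6% of all shDdx5 peaks, and the interval covers all 3 values.

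In shDdx5 the genes included Hoxb2 and Hoxc13. The Hoxb2 peak, at a hindbrain patterning gene, held 9 fragments over 1.98. The Hoxc13 peak, at a gene known for hair and nails, held 9 over 2.37. In shControl the Hoxa7 peak held 8 fragments over 2.27, with a −log10 q of 0.303, and that counted for Hoxc5 and Hoxc10 held 10 over 2.58 and shared 9 bp with the KO peak there.

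By −log10 q the leading window peaks of shDdx5 were in HOXC and away from HOX starts. The intron peak of Hoxc6 and Hoxc5 shown above held 17 fragments (9.90 to 27.2) over 3.62, with a −log10 q of 3.23, the highest of the 30 window peaks of MEFs. An intergenic peak 6598 bp beyond the Hoxc12 start held 13 over 2.44 (2.64), and another intron peak of Hoxc6 held 12 over 3.05 (1.34). In shControl the leading peaks were 4226 bp upstream of Hoxc12 (10 fragments, −log10 q 1.56), over untranslated sequence of Hoxd12 (8, 0.915) and in an intron of Hoxc9 (10, 0.804). WT and shControl shared 1 of their 4 and 9 window peaks, the one upstream of Hoxc4.

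Set against the list made without antibody, WT had 4 of the 5 window peaks of that pair (80%, 28.4 to 99.5%, against 60.04% over all peaks) and both of its HOX gene calls (100%, 15.8 to 100%, against 90.2%). The peak found without antibody lay between Hoxb13 and Hoxb9, held 4 fragments over 0.266, and overlapped no peak of the 4 lists made with S9.6. At 720 fragments per Mb against 6490 in WT, the list made without antibody could not show what these loci hold at the depth of the others.

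In HEK293, S9.6 and RNH1 were compared to ask which hybrids are lost when RNase H1 is in excess. HOXA9 had a TSS peak in both (17.5% of all genes did), HOXC4 in S9.6 and not RNH1 (12.6%), and HOXB7 and HOXC13 in RNH1 and not S9.6 (7.18%). RNH1 supplied 3 of the 5 gene calls (60%, 14.7 to 94.7%, against 45.0% over all genes) and 9 of the 19 window peaks (47.4%, 24.4 to 71.1%, against 45.2% over all peaks). The HOX windows thus held about as many S9.6 peaks with the plasmid as without.

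Of the 10 window peaks of S9.6, 4 overlapped a peak of RNH1 (40%, 12.2 to 73.8%, against 28.9% of all S9.6 peaks). Of the 9 of RNH1, 4 overlapped one of S9.6 (44.4%, 13.7 to 78.8%, against 35.1%). Both intervals covered the share of the whole list. At these 4 loci the fragments at the summit were 38 in S9.6 (26.9 to 52.2) and 31 in RNH1 (21.1 to 44) in the HOXC intron, 32 (21.9 to 45.2) and 31 (21.1 to 44) in HOXD11, 21 (13 to 32.1) in each at HOXA9, and 28 (18.6 to 40.5) and 20 (12.2 to 30.9) in the shared intron of HOXA6 and HOXA3. The paired intervals overlapped at all 4, and the depth computed from the lists was 10395 fragments per Mb in S9.6 and 11050 in RNH1. These loci have a peak in both lists by choice, so they do not speak for the other 6 window peaks of S9.6, which overlapped no RNH1 peak, and the difference was not tested.

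The HOXD11 locus was the best ranked of the RNH1 window peaks, at 1107 of 12497 by q (−log10 q 11.8, fold 5.52), and stood at 1412 of 15147 in S9.6 (12.02, fold 5.47). HOXD11 acts in the forearm and the kidney. The peaks lay 1330 and 1366 bp from the HOXD11 start in S9.6 and RNH1, over an intron, and the summits of the 2 lists were 2 bp apart. The summit sequences, shown because they coincide, were chr2:176105543-176105643 and chr2:176105545-176105645 (hg38):
S9.6 HOXD peak 1: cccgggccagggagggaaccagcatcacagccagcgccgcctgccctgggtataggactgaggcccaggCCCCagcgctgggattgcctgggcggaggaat
RNH1 HOXD peak 1: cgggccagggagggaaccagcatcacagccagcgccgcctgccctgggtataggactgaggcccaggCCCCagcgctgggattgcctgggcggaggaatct
The sole run of at least 4 G or C in them is the CCCC in capitals.

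HOXA9, a posterior gene that also acts in blood stem cells, was the gene with a TSS peak in all 3 of these lists. Its start here is an internal one: the midpoints lay 135 bp from a HOXA9 TSS in S9.6 and 6 bp in RNH1, and 5308 and 5449 bp inside the HOXA9 gene record, over an exon of the antisense gene HOXA10-AS and, in RNH1, of the miRNA gene MIR196B. The S9.6 peak held 21 fragments over 4.97 and the RNH1 peak 21 over 5.6, with summits 21 bp apart. FLAG-MCM8 had a peak just to the left, with 12 fragments (6.20 to 21.0) over 2.16, which reached the edge of MIR196B, ended just before the RNH1 peak and overlapped neither. It had another peak 252 bp upstream of the HOXA9 gene record, with 12 fragments over 2.29. The windows are shown because they are neighbours of unlike sequence, with runs of C in the FLAG-MCM8 window and a run of G in the other two:
FLAG-MCM8 HOXA peak 2: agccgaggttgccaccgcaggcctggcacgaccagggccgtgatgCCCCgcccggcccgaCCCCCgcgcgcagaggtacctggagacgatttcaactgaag
S9.6 HOXA peak 2: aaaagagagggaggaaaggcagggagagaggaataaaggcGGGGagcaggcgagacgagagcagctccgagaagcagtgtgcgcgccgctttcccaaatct
RNH1 HOXA peak 3: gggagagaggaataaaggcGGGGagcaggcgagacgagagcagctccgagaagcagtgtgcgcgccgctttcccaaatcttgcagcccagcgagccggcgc
They span chr7:27169388-27169488, chr7:27169789-27169889 and chr7:27169810-27169910 (hg38).

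The genes that S9.6 and RNH1 did not share rested on peaks at 39.4% (HOXC4), 86% (HOXC13) and 99.7% (HOXB7) of their lists when ranked by q from the top. HOXC4 in S9.6 held 26 fragments (17.0 to 38.1) over 5.998 with its midpoint 939 bp upstream of a HOXC4 TSS, and no RNH1 peak overlapped it. HOXC13 in RNH1 held 18 (10.7 to 28.4) over 4.47, 248 bp upstream of its start, and HOXB7, a gene of the trunk, held 16 (9.15 to 26) over 4.62, 31 bp from the start of its gene record. Away from HOX starts, S9.6 had 23 fragments over 3.67 in an intron of HOXB6 and HOXB3, 110 bp from a start of HOXB-AS3 (−log10 q 8.14). RNH1 had 30 over 6.17 in an intron of HOXB7, 1255 bp upstream of HOXB9 (8.34).

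**Figure D5:**
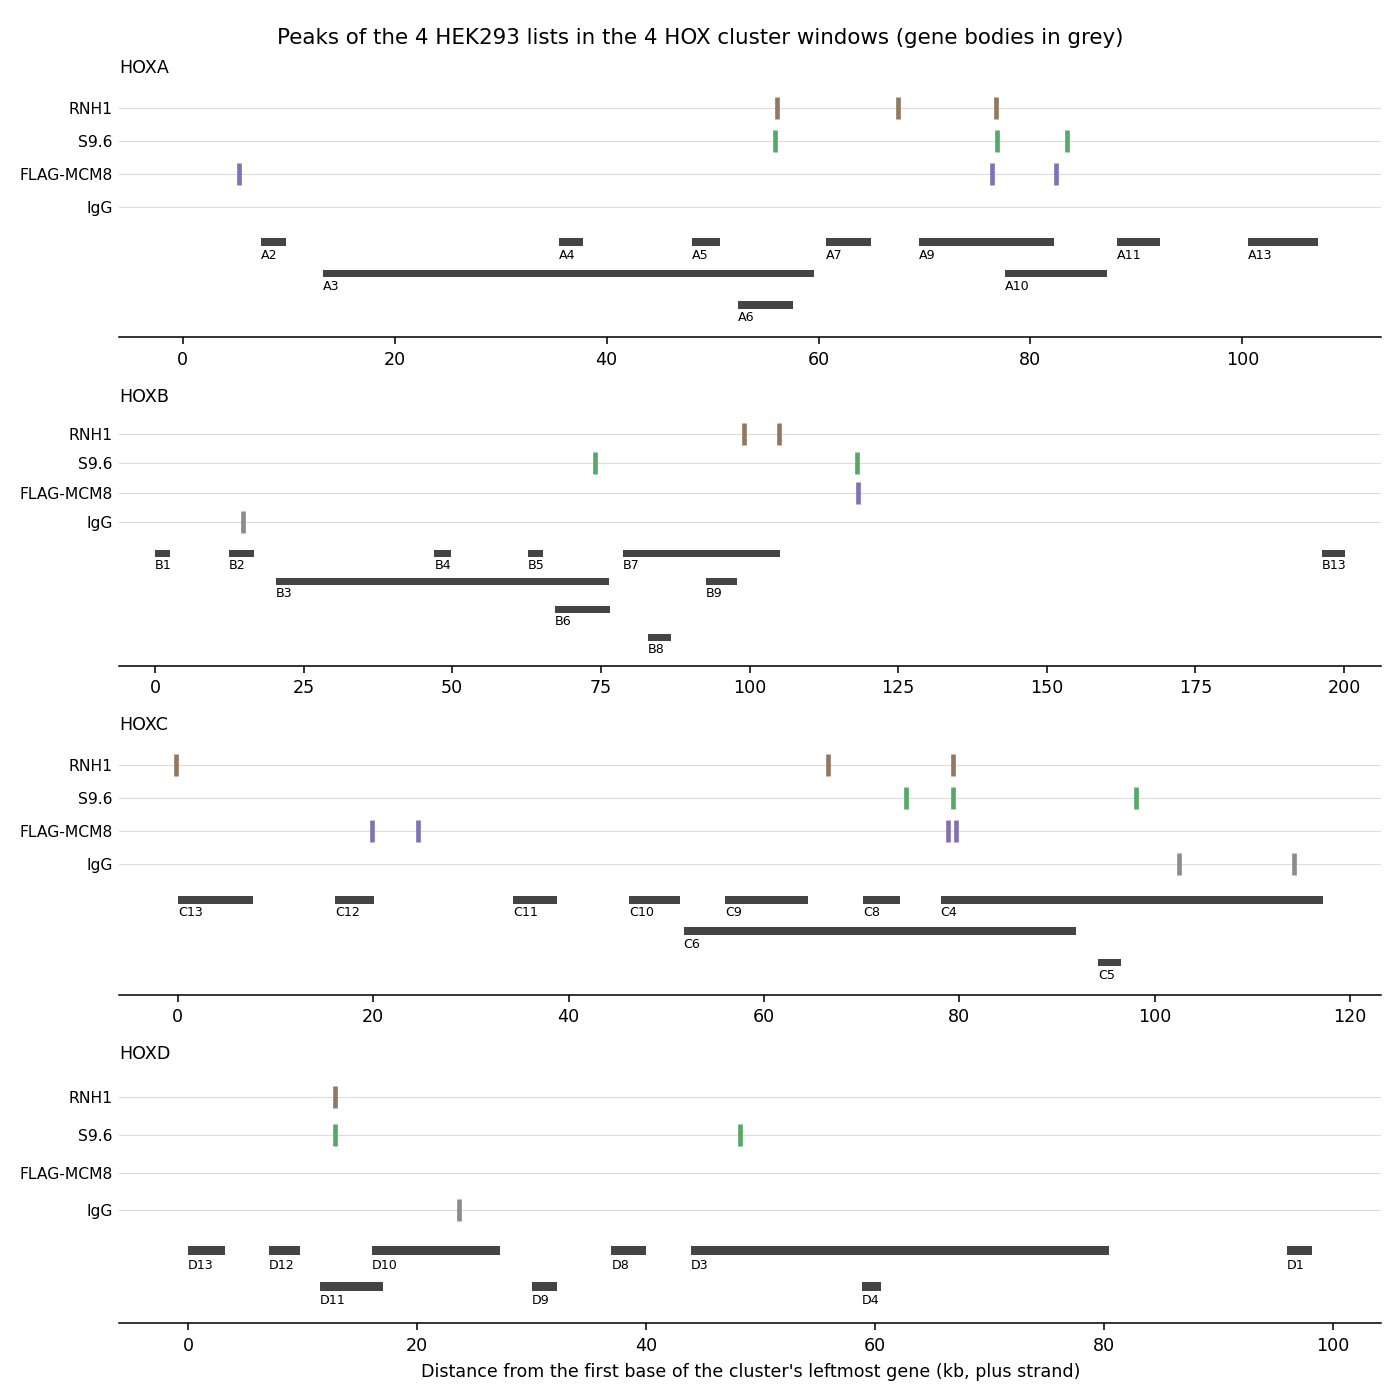
Peaks (vertical ticks) of the 4 HEK293 lists along the 4 human HOX windows, in kb from the first base of the leftmost gene, over the gene bodies in grey, with 1 gene left out. S9.6 and RNH1 ticks line up at 4 loci, FLAG-MCM8 joins them in the HOXC intron and joins S9.6 alone between B7 and B13, and no IgG tick lines up with another list.

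FLAG-MCM8 was set against IgG as its control and against S9.6 to ask whether the helicase sits where hybrids form. FLAG-MCM8 had 8 of the 12 window peaks of the pair with IgG (66.7%, 34.9 to 90.1%, against 43.6% over all peaks) and 2 of the 5 gene calls (40%, 5.27 to 85.3%, against 68.2% over all genes). No IgG peak overlapped a window peak of another HEK293 list. Both HOX genes with a FLAG-MCM8 TSS peak, HOXA9 and HOXC4, also had one in S9.6, through peaks that did not overlap, against 7.39% of all genes in both lists and 4.62% in FLAG-MCM8 and not S9.6. HOXC4 had one in IgG too, at another of its starts, with 19 fragments over 3.66.

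Of the 8 window peaks of FLAG-MCM8, 3 overlapped a peak of S9.6 (37.5%, 8.52 to 75.5%, against 13.5% of all FLAG-MCM8 peaks). Those that overlapped one of RNH1 were 2 (25%, 3.19 to 65.1%, against 12.9%). From the other side, 2 of the 10 peaks of S9.6 overlapped one of FLAG-MCM8 (20%, 2.52 to 55.6%, against 11.8%). For RNH1 it was 1 of the 9 (11.1%, 0.281 to 48.2%, against 13.7%). Each interval covered the share of the whole list. FLAG-MCM8 HOXC peak 3 shared 9 bp with each of the S9.6 and RNH1 peaks that it overlapped. The overlapping peaks lay at 2 places, the HOXC intron and the stretch of HOXB where the noncoding genes LINC03057 and LINC02086 begin on opposite strands.

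In HEK293 the window peak with the most fragments and the highest −log10 q was the S9.6 peak in the HOXC intron. Its fold was below those at HOXD11, at HOXD10 in IgG and in the HOXB6 and HOXB3 intron in S9.6 (5.14). The S9.6 peak there, chr12:54017954-54018413 (hg38), held 38 fragments over 6.80, with a fold of 5.00, a −log10 q of 12.8 and rank 1198 of 15147. The RNH1 peak began at the same base and held 31 over 6.68 (−log10 q 8.18). FLAG-MCM8 had peaks on either side, each overlapping both, with 17 fragments (9.90 to 27.2) over 3.47 and 20 (12.2 to 30.9) over 3.45, and −log10 q values of 4.20 and 6.14, its 2 highest in the windows. The summit of its right-hand peak was 12 bp from that of RNH1 and 238 bp from that of S9.6:
FLAG-MCM8 HOXC peak 4: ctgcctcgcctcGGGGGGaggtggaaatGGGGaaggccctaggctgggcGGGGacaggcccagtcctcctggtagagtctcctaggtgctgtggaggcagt
RNH1 HOXC peak 3: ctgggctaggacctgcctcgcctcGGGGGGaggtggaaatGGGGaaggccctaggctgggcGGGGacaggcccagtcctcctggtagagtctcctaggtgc
These windows, chr12:54018335-54018435 and chr12:54018323-54018423 (hg38), carry 3 runs of at least 4 G. The left-hand FLAG-MCM8 peak had its midpoint 798 bp from the start of the HOXC4 gene record, which is why HOXC4 was counted for that list.

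In HOXB the FLAG-MCM8 and S9.6 peaks met at the starts of LINC03057 and LINC02086, 13156 and 13044 bp upstream of HOXB7 in the stretch that separates HOXB13 from the rest of the cluster. The S9.6 peak held 23 fragments (14.6 to 34.5) over 4.27 and the FLAG-MCM8 peak 13 (6.92 to 22.2) over 2.21, with summits 20 bp apart, and RNH1 had no peak there. The windows, chr17:48646713-48646813 and chr17:48646733-48646833 (hg38), overlap:
FLAG-MCM8 HOXB peak 1: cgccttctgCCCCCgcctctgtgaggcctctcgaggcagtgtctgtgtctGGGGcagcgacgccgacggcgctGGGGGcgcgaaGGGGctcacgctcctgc
S9.6 HOXB peak 2: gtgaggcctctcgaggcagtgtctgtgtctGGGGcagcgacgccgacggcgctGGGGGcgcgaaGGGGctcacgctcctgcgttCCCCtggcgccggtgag

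The IgG list showed what the windows can yield without a specific antibody. Its 4 peaks lay at HOXD10 (24 fragments, 15.4 to 35.7, over 3.34, −log10 q 9.69), at a HOXC4 start (19 over 3.66, 5.49), at HOXB2 (17 over 4.21, 3.69) and in a HOXC4 intron (15 over 3.80, 3.19). The HOXD10 peak, at a gene that acts in the limb, ranked 1160 of 17178, which was a higher place in its list (6.75%) than any window peak of FLAG-MCM8, S9.6 or RNH1 held in theirs. A peak at a HOX start was therefore not particular to S9.6 or anti-FLAG.

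The sequences under the peaks were next aligned between mouse and human, over all 930 pairs of a mouse and a human window peak. The 2 highest scores, 411 each, were the shDdx5 peak in the Hoxc6 and Hoxc5 intron with the S9.6 peak and with the RNH1 peak in the HOXC6 and HOXC4 intron: 352 of 445 aligned columns were identical (79.1%). The shDdx5 and S9.6 peaks are those with the most fragments and the highest −log10 q among the window peaks of MEFs and of HEK293. The next was the Hoxc13 peak of shDdx5 with the HOXC13 peak of RNH1, at a score of 222 with 198 of 251 columns identical (78.9%). The highest score between peaks of different clusters was 67 and the median of all pairs 21. HOX clusters hold many noncoding stretches that mouse and human share, so that the stretches align is not particular to the peaks.

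The fourth score, 86, joined the same mouse intron peak to the left-hand FLAG-MCM8 peak, over 74 columns. The KO peak over an exon of the mouse noncoding gene Gm53, between Hoxb13 and Hoxb9, aligned to the S9.6 peak at the start of LINC03057 and LINC02086 over 32 columns (93.8% identical, score 54), on the opposite strand, which was below the highest score between clusters. The Hoxd11 peak of WT aligned to the HOXD11 peaks of S9.6 and RNH1 at a score of 43, over 45 columns on the opposite strand, also below it.

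Noncoding RNA genes in the windows had TSS peaks beside the HOX genes. Of 45 such genes in mouse, the WT list had one at 2, KO at 4, shControl at 1, shDdx5 at 2 and no antibody at none, against 2.58% of all noncoding genes in WT and 3.85%, 3.87% and 5.37% in the other 3. Gm53 and Hoxd3os1 had one in KO and Hoxb3os in shControl. Of 58 in human, 8 had one in FLAG-MCM8, 5 in S9.6, 4 in RNH1 and 1 in IgG, against 3.49%, 7.87%, 6.32% and 2.07% of all noncoding genes. HOXA10-AS and MIR196B were in FLAG-MCM8, S9.6 and RNH1 alike, LINC03057 and LINC02086 in FLAG-MCM8 and S9.6, HOTAIRM1 in FLAG-MCM8, HOXB-AS3 in S9.6, and HOXA-AS3 and MIR196A1 in RNH1. Neighbours share peaks here too: the FLAG-MCM8 peak at HOTAIRM1 (11 fragments over 1.81) also counted for a small RNA gene inside it.

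FLAG-MCM8 also had a peak over an exon of HOTAIR, the noncoding RNA gene between HOXC11 and HOXC12, with 12 fragments over 2.41 and a −log10 q of 2.95, the lowest of its 8. S9.6 had none there.

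By sequence the window peaks of HEK293 had a higher median GC than all peaks of their lists. The median GC of the 101 bp at the summits was 63.9% in S9.6 and 64.4% in RNH1, against 59.4% over all peaks of either list, and 68.3% in FLAG-MCM8 against 52.5%. In IgG it was 65.8% against 46.5%, so the 4 control peaks shared this. In MEFs the medians, 55% (WT), 55.4% (KO), 59.4% (shControl) and 54.5% (shDdx5), stood beside 53.5, 52.5, 51.5 and 54.5% over the whole lists. Peaks at a protein-coding TSS had medians of 65.3% in S9.6 and in RNH1, above the window peaks, and of 62.4% in FLAG-MCM8 and 56.4% in IgG, below them. In MEFs those medians were 63.4% (WT), 63.4% (KO), 62.4% (shControl) and 64.4% (shDdx5), all above the window peaks.

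The motif GGGG on either strand (read as GGGG or CCCC on the plus strand, overlaps counted once) was in 9 of 10 S9.6 windows (70.1% of all peaks of that list), 6 of 9 in RNH1 (70.3%), 6 of 8 in FLAG-MCM8 (56.8%) and 3 of 4 in IgG (46.0%). In MEFs it was in 2 of 4 (58.1%), 4 of 7 (56.9%), 8 of 9 (52.4%) and 7 of 9 (60.6%) for WT, KO, shControl and shDdx5. A match is a description of the letters and not of a structure.

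Other genes of the HOX system were counted in the same way. Of the 9 genes of the PBX, MEIS and PKNOX cofactors, which bind DNA together with HOX proteins, 5 had a TSS peak in shDdx5 and 3 in each of the WT, KO and shControl lists, and 4 had one in S9.6, 3 in RNH1, 1 in FLAG-MCM8, 1 in IgG and none without antibody. Of all protein-coding genes 23.1% had one in shDdx5, 11.3% in WT, 16% in KO, 14.7% in shControl, 30.1% in S9.6, 24.6% in RNH1, 12% in FLAG-MCM8 and 5.59% in IgG, and no interval was computed for these short lists. Pknox1 had one in each of the 4 MEF lists made with S9.6, with 22, 24, 28 and 30 fragments for WT, KO, shControl and shDdx5, all above the 17 of the highest HOX window peak of MEFs. PKNOX1 had 51 in S9.6 and 46 in RNH1, but also 20 in IgG. Pbx3 had 14, 20, 13 and 22 in the same MEF lists, and PBX3 had 24 in S9.6 and 23 in FLAG-MCM8.

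Of the 13 upstream regulators (CDX factors, GDF11, retinoic acid genes, the chromatin regulators KMT2A, KDM6A and KDM6B, and the insulator protein CTCF), 1, 1, 4 and 3 had a TSS peak in WT, KO, shControl and shDdx5, and 5, 3, 1 and 3 in S9.6, RNH1, FLAG-MCM8 and IgG, and Cdx2 alone had one without antibody, to be read against the same shares of all genes. Ctcf had 12 fragments in shControl and 28 in shDdx5, and CTCF 40 in S9.6 and 36 in RNH1. Of the 16 Polycomb genes, whose products silence HOX genes, 2, 5, 3 and 5 had one in the MEF lists in that order, and 4, 5, 1 and 1 in S9.6, RNH1, FLAG-MCM8 and IgG, again beside those shares, with JARID2 in all 4 of the HEK293 lists and Eed in WT, KO and shDdx5. Of the 7 homeobox genes next to or related to the clusters, 1 had one in WT (Meox2) and 1 in S9.6 (GSX1), and none in the other lists.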

How the data were processed

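CUT&Tag was run on 5 MEF and 4 HEK293 libraries, 1 per group, read here as peaks called per library. The authors trimmed reads (Trimmomatic), aligned them with Bowtie2 to mm10 or hg38 and called peaks with MACS2, version 2.1.2 by the submitters' processing notes. Duplicate handling and the calling threshold are not given in the sources used here, and the no-antibody library was not used as input in MEFs. The lowest −log10 p of a list was 3.00 to 3.01 in the MEF lists and 5.00 to 5.02 in the HEK293 lists. The deposited lists give, per peak, the fold (a ratio at the summit over local background) and −log10 of a p-value and a q-value. They hold no counts, so the fragments at each summit and the background were solved from fold and −log10 p with MACS2's Poisson formula and a pseudocount of 1, to within 0.005 absolute or 0.0005 relative (100% of peaks recovered in each list). Depth was taken as the lowest background divided by the shortest peak width, and mitochondrial peaks (6 to 9 per HEK293 list) were left out.

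Genes came from the GENCODE M21 (mm10) and release 44 (hg38) annotations. Samples were grouped by their labels. Overlap needed 1 shared bp. Peak sequences were aligned locally with Biopython 1.88 (match 2, mismatch -3, gap opening -5, extension -2) after the peaks had been seen. Counts were made with Python 3.11.15, pandas 2.3.3, SciPy 1.17.1, pysam 0.24.0 and samtools 1.23.1, and the scripts were tested on simulated data. The text names genes with a TSS peak that differed within a pair of lists, that lay in FLAG-MCM8 or a control, or that occurred in 3 or more MEF lists, the 3 window peaks with the highest −log10 q per list, and up to 4 related genes per group. Of the named genes, 1 HOX gene and a kidney marker gene enter the counts but are not reported here by name. The HOX genes and the gene lists were chosen with earlier results of these data known. Alternatives tried were stricter q and fold limits, removal of control peaks, merging, window and TSS distances and TSS sets.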

Additional observations from a re-analysis of the deposited data

How the results depend on the processing

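Of 66 recomputed shares between paired lists, 57 stayed within the interval of the value reported above. With a q of 0.05 or lower the share of window peaks from KO, of KO and WT, became 100% (1 and 0 peaks) and that from shDdx5, of shDdx5 and shControl, 80% (4 and 1), and the share of HOX gene calls from shDdx5 became 100% (1 and 0). With a q of 1e-05 or lower the share of window peaks from FLAG-MCM8, of FLAG-MCM8 and IgG, became 33.3% (1 and 2), its share of gene calls 0% (0 and 2), and the share of gene calls from RNH1, of RNH1 and S9.6, 0% (0 and 1). With the start of the gene record as the sole TSS the gene shares of FLAG-MCM8 and RNH1 both became 100% (2 and 0), and with TSSs of protein-coding transcripts that of RNH1 became 100% (1 and 0). The HOXA9 and HOXC4 calls of S9.6 rest on internal TSSs and went with either. Fewer peaks or TSSs remain under each of these settings by construction.

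The HOX share lay below that of all genes, interval included, in 10 of 11 settings for S9.6 and 10 of 11 for RNH1. It did so in 7 of 11 for shDdx5 and 1 of 11 for KO (q of 0.05 or lower). The 11 settings include the one reported above, and in HEK293 the q limit of 0.05 removes no peak. The exception for S9.6 and RNH1 was a midpoint within 3 kb of the TSS. The HOX shares were then 20.5% (9.30 to 36.5%) against 35.1% and 23.1% (11.1 to 39.3%) against 29.4%. With a q of 0.05 or lower the 4 S9.6 lists of MEFs held 0, 1, 1 and 4 window peaks (WT, KO, shControl, shDdx5). The whole lists then held 2118, 3472, 3442 and 7119 peaks in the same order. Peak density in the windows was not recomputed at this limit, so the MEF densities given above hold for peaks of any q. No share could be computed, for want of any peak or gene, for WT against no antibody under each q and fold limit, for KO against WT and shDdx5 against shControl at a q of 1e-05, for KO against WT with a fold of at least 4, and for the gene calls of KO against WT at a q of 0.05 and of both shDdx5 against shControl and RNH1 against S9.6 with a fold of at least 4. No paired analysis was possible because each group has 1 library. Depth limits the MEF loci: a summit of 7 fragments has an interval of 2.81 to 14.4.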
